A study of Mus musculus with 14 samples.

Results

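The transcripts described here are those of 9 genes that restrain or redirect inflammation, out of 49315 genes in the count table. They are Il10 with the receptor subunits Il10ra and Il10rb, the interleukin 1 antagonists Il1rn and Il1r2, and the alternative activation genes Il4ra, Il13ra1, Arg1 and Chil3. The genes were chosen by name for what they do, so no measured value had to pass a limit for a gene to enter the list. The choice was made with earlier results of these data known. All 9 had a row in the table, and 6 of the 9 passed the filter on low counts. Il1r2, Arg1 and Chil3 did not pass it.

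The cells were microglia, the macrophages that live in brain tissue, in primary culture, taken from the forebrains of C57BL/6 pups at postnatal days 6 to 7. They came from global TIMP2 KO pups or from WT pups, with 7 libraries per genotype. TIMP2 is a secreted inhibitor of matrix metalloproteinases, and a global KO lacks it in all cells of the pup rather than in microglia alone. Male and female pups were pooled, each library stands for a pool of 5 pups, and both genotypes went through the same selection on CD11b and the same culture, with no stimulus named. Cells grown out of the brain in serum are a limited model of microglia in tissue.

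IL-10 is a cytokine that macrophages release to limit their own response. It binds IL-10RA, the chain particular to it, together with IL-10RB, which is shared with other cytokines of its family, and signals through JAK1, TYK2 and STAT3. Interleukin 1 is held back in a different way, by the receptor antagonist IL-1RN, which occupies the signalling receptor without activating it, and by IL-1R2, a decoy receptor that binds the cytokine without signalling. IL-4 and IL-13 act through IL-4RA, paired with the common gamma chain or with IL-13RA1, and through STAT6 they induce Arg1 and Chil3 in macrophages, a state known as alternative activation.

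The libraries held 38875344 to 45623039 counted reads in KO and 41538291 to 48070236 in WT. Timp2 was at 120 to 129 CPM (counts scaled to a common library size) in the KO libraries and 398 to 495 CPM in the WT libraries, so the labels and the targeted gene went together although Timp2 reads were still counted in KO (log2 fold change -1.92, adjusted p = 1.53e-12 in edgeR). All 9 microglia markers had counts in every library. Summed neutrophil markers reached 27.3 CPM in KO library 3, 20.5 CPM in KO library 7 and 17.5 CPM in WT library 2, against 1.10 to 9.00 CPM in the others. S100a8, S100a9 and Cxcr2 were highest in these 3 libraries (457, 277 and 273 counts of S100a9). Ngp, Ltf and Camp of the same list were also highest in library 3 within KO (79, 75 and 16 counts). Within WT, however, Ngp, Ltf and Camp were highest in library 7 (69, 78 and 12 counts). Ly6g, Mpo and Elane had at most 2 counts in any library. The libraries numbered 1 of both genotypes stood apart in F13a1, a gene of border macrophages, with 1426 counts in KO and 1259 in WT, against 141 to 461 elsewhere. Because these are bulk cultures, fewer cells of a type and less RNA per cell cannot be told apart.

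The 4 receptor chains were abundant and the secreted or induced products were scarce. Levels of different genes are compared here as CPM per kilobase of exon (RPKM). Il10rb had the highest median over the 14 libraries, at 52.2 RPKM, followed by Il10ra at 35.9, Il4ra at 18.2 and Il13ra1 at 10.7 RPKM. Each of these receptor chains was above the next in all 14 libraries, with no overlap of their ranges, and Il13ra1 was likewise above Il1rn. Il1rn had a median of 0.980 RPKM and Il10 of 0.249 RPKM. Arg1, Chil3 and Il1r2 followed at medians of 0.0983, 0.0403 and 0.0247 RPKM. From Il1rn downwards the ranges of neighbours overlapped, and the gene placed higher was above the next in 13, 13, 10 and 9 of the 14 libraries. Among the tested genes on the RPKM scale, Il10rb lay at percentile 94.7, Il10ra at percentile 91.8 and Il10 at percentile 18.2.

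**Figure D1:**
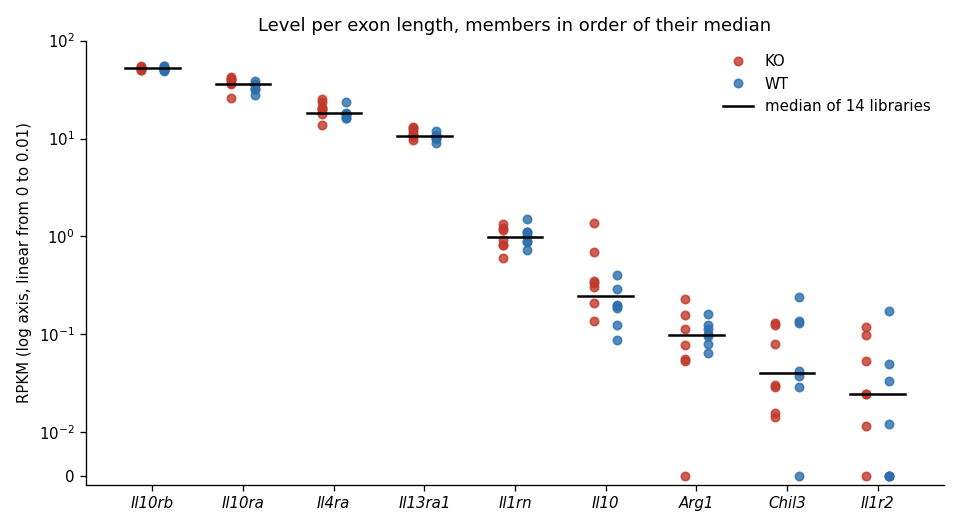
Level per exon length (RPKM, log axis that turns linear from 0 to 0.01) of the 9 genes in each of the 14 libraries, KO in red and WT in blue, with the median of all libraries as a bar. The 4 receptor chains lie above 9 RPKM in every library, while Arg1, Chil3 and Il1r2 stay below 0.25 RPKM and include libraries at 0.

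None of the 6 tested genes passed an adjusted p under 0.05 between the genotypes in edgeR, in either direction. Over all 15700 tested genes, 3 passed (0.0191%), and the KO level was the lower for each of these. Il10 was the only 1 of the 6 with an unadjusted p under 0.05, against 529 of the 15700 (3.37%), and DESeq2 called none of the 6 either. That count moved with single libraries, to 3 (Il10, Il10ra and Il4ra) without KO library 1 and to 0 without KO library 3 or without the 3 libraries highest in neutrophil markers. The log2 fold change (KO over WT) was positive for 5 of the 6, with a median of 0.14, against 50.8% of all tested genes and a median of 0.0016. The values of KO and WT overlapped for each of the 9 genes, while 0.0828% of the tested genes had groups that did not overlap.

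**Figure D2:**
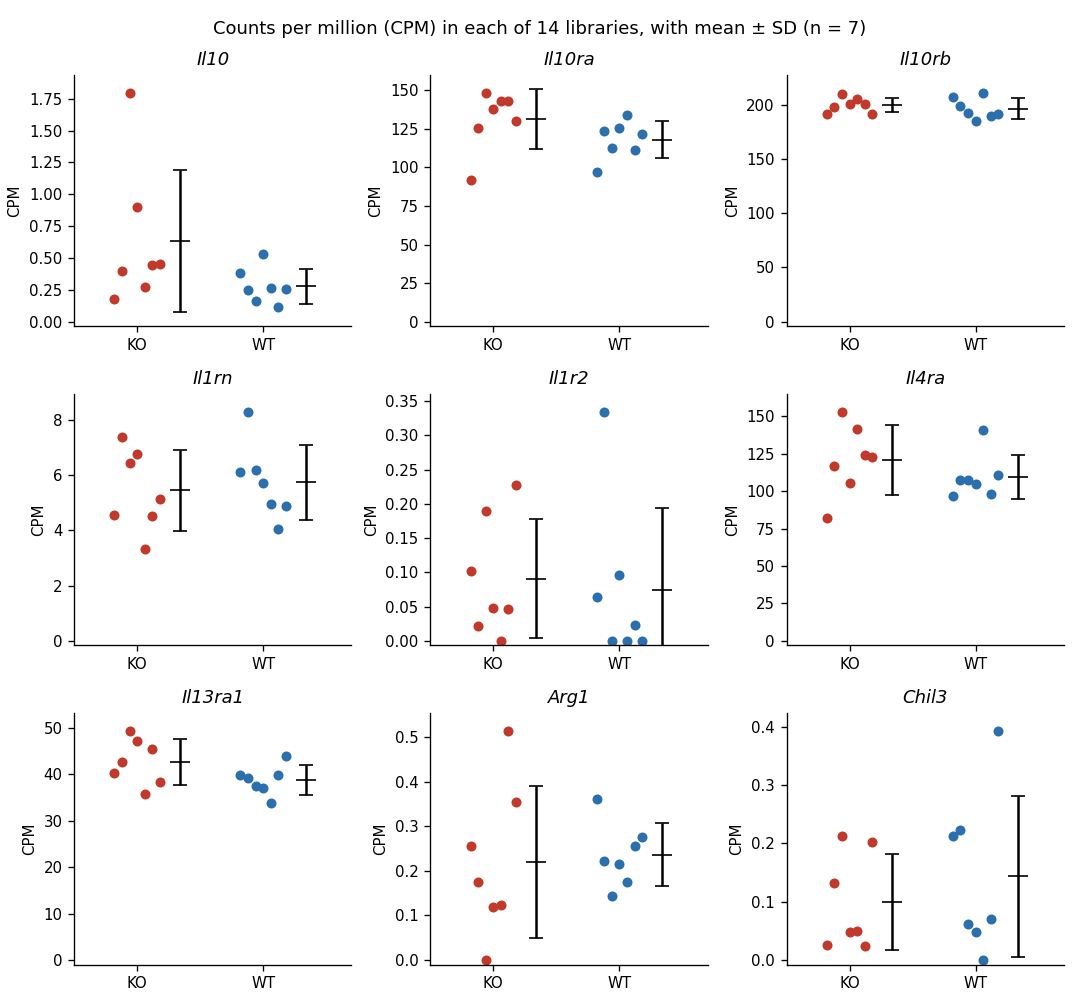
CPM of each of the 9 genes in the 7 KO (red) and 7 WT (blue) libraries, ordered by library number within a genotype, with mean and SD beside them. The genotypes overlap in every panel, KO libraries 3 and 4 lie highest for Il10 at 1.80 and 0.902 CPM, and Il1r2 and Chil3 are high in only a few libraries of both genotypes.

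Il10 (ENSMUSG00000016529, chr1:131019845-131024974, plus strand, GRCm38) was present at low counts in every library. The KO libraries 1 to 7 held 7, 18, 76, 38, 11, 19 and 18 counts of Il10, and the WT libraries 18, 11, 8, 22, 12, 5 and 11. KO libraries 3 and 4 were above every WT library, and the other 5 KO libraries lay within the WT range. The KO mean was 0.634 ± 0.560 CPM and the WT mean 0.279 ± 0.138 CPM (SD, n = 7 each). The log2 fold change was 1.19 ± 0.474 (SE), with a 95% interval of 0.17 to 2.20, and it missed the threshold over all genes (adjusted p = 0.943 in edgeR, with the 229th smallest p of the 15700 genes). The spread of Il10 between libraries was wider than that of 96.8% of the tested genes, with a biological coefficient of variation of 0.570.

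Much of the Il10 difference came from KO library 3. Without it the log2 fold change of Il10 was 0.66 (adjusted p = 1.00 in edgeR), and without the 3 libraries highest in neutrophil markers, among them KO library 3, it was 0.63 (adjusted p = 0.998 in edgeR). The part of other cells in the Il10 level was not tested. Il1b, which encodes the inflammatory cytokine IL-1 beta, was highest in the libraries where Il10 was highest. KO library 3 held 947 counts of Il1b, KO library 4 held 1114 and WT library 4 held 690, and the same 3 libraries led both genes on the CPM scale. Il1b was at 120 to 444 counts in the rest. This comparison was chosen after the values were seen.

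Il10ra (ENSMUSG00000032089, chr9:45253837-45269149, minus strand), the ligand-binding chain, ran from 91.7 to 148 CPM in KO, with a median of 138, and from 97.4 to 134 CPM in WT, with a median of 122. KO library 1 was lower than every WT library, and KO libraries 3 to 6 were above all of them. The KO mean was 131.5 ± 19.3 CPM and the WT mean 118 ± 12.0 CPM (SD, n = 7 each). The log2 fold change of Il10ra was 0.15 ± 0.094 (SE), with a 95% interval from -0.05 to 0.35, and did not pass (adjusted p = 0.943 in edgeR). The library numbered 1 had the lowest Il10ra in each genotype, the same libraries that stood apart in F13a1. Without both of them the log2 fold change of Il10ra was 0.18 (adjusted p = 0.729 in edgeR), and without KO library 1 alone it was 0.22 (adjusted p = 0.712 in edgeR).

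Il10rb (ENSMUSG00000022969, chr16:91406164-91425834, plus strand) varied least between libraries among the 6 tested genes. It lay between 191.5 and 210.0 CPM in KO and between 185 and 211 CPM in WT, so the KO values fell wholly inside the WT range. The means were 200.0 ± 6.70 and 196.9 ± 9.505 CPM (SD, n = 7 each). The log2 fold change of Il10rb was 0.02 ± 0.0325 (SE), and its 95% interval held ratios of KO to WT from 0.968 to 1.065 (adjusted p = 0.952 in edgeR). The exons of Il10rb overlap those of Gm21970, which held at most 2 counts in a library.

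**Figure D3:**
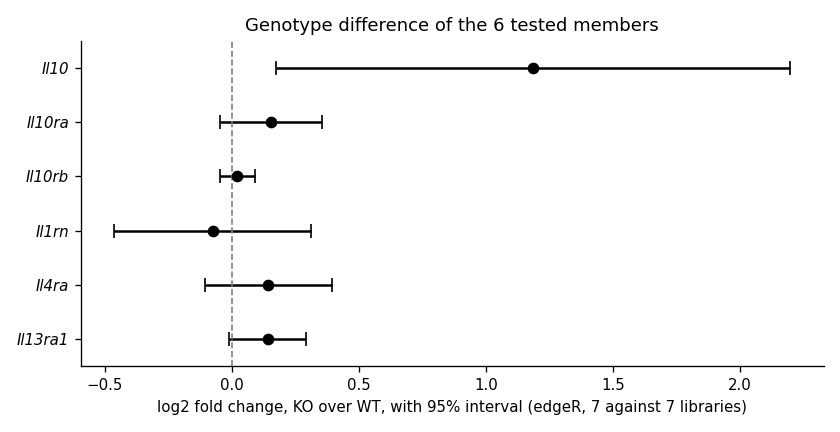
Log2 fold change (KO over WT) of the 6 tested genes, with the 95% interval of the edgeR fit over 7 KO and 7 WT libraries. The interval of Il10 runs from 0.17 to 2.20 and is the widest, and that of Il10rb, from -0.05 to 0.09, is the narrowest.

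Il1rn (ENSMUSG00000026981, chr2:24336853-24351494, plus strand), the receptor antagonist, was the only tested gene of the list with a lower mean in KO. Its counts were 178, 336, 273, 285, 134, 194 and 204 in KO libraries 1 to 7 and 288, 372, 300, 238, 225, 174 and 212 in the WT libraries. Library 2 was the highest of both genotypes and the ranges overlapped over most of their length. The KO mean was 5.44 ± 1.46 CPM and the WT mean 5.73 ± 1.36 CPM (SD, n = 7 each). On the log2 scale KO minus WT was -0.07 ± 0.182 (SE) for Il1rn, with a 95% interval from -0.46 to 0.31 (adjusted p = 0.972 in edgeR), and its sign changed when KO library 5 or WT library 2 was left out. The gene gives rise to secreted and intracellular forms from different starts, and a count per gene joins them.

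Il1r2 (ENSMUSG00000026073, chr1:40074079-40125231, plus strand), the decoy receptor, was near the limit of detection. The KO libraries held 4, 1, 8, 2, 0, 2 and 9 counts and the WT libraries 3, 15, 0, 4, 0, 1 and 0, which makes 26 against 23 in all. At a count of 0, the largest of the 4 libraries concerned still allows up to 0.0618 CPM (3 counts) and the smallest up to 0.0741 CPM, for counting error only. The difference in mean log2 CPM was 0.57 (exact two-sided permutation test, p = 0.441, smallest possible p = 0.00058), and it depended on the prior count, at 1.05 with 0.25 and 0.20 with 5. The 3 highest counts of Il1r2, in KO libraries 3 and 7 and WT library 2, came from the 3 libraries with the highest summed neutrophil markers. Of the 11 neutrophil markers, 5 had counts in every library and the sum ran from 3.64 to 27.3 CPM in KO and 1.10 to 17.5 CPM in WT. The part of these cells in the Il1r2 counts was not tested.

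**Figure D4:**
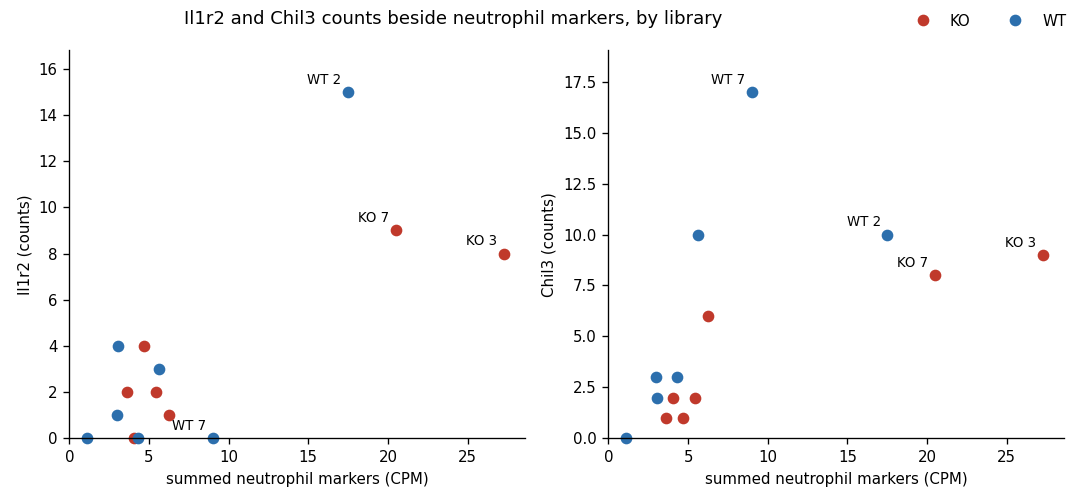
Counts of Il1r2 (left) and Chil3 (right) in each library against the summed CPM of 11 neutrophil markers, KO in red and WT in blue, with the 4 libraries of highest marker sum named. KO 3, KO 7 and WT 2 hold 8, 9 and 15 counts of Il1r2 while no other library has more than 4, and WT 7 leads Chil3 with 17 counts.

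The cytokine and the receptors that Il1rn and Il1r2 oppose were also measured. Il1b had a log2 fold change of 0.67 ± 0.475 (SE) and Il1a of 0.09 ± 0.253 (SE), and neither passed (adjusted p = 0.943 and 0.974 in edgeR). The signalling receptor Il1r1 was scarce, at 21 to 97 counts, with a mean of 1.22 CPM in KO and 1.61 CPM in WT. Its partner chain Il1rap was at 12.4 CPM in KO and 12.8 CPM in WT. Over the 17 ligands, receptors and binding proteins of the interleukin 1 family, 10 were tested, 6 had positive and 4 negative log2 fold changes, and none passed. Sigirr, a receptor that dampens interleukin 1 signals, had the smallest unadjusted p, with 0.352 CPM in KO and 0.527 CPM in WT (adjusted p = 0.943 in edgeR), followed by Il18bp, which binds and neutralizes IL-18, at 10.4 and 8.61 CPM (adjusted p = 0.943 in edgeR). Of the 11 genes for signalling and processing, 9 were above 0 and 2 below, again with none called. The smallest p there belonged to Irak2, a kinase of the receptor complex, with 79.0 CPM in KO and 72.6 CPM in WT (log2 fold change 0.12, adjusted p = 0.943 in edgeR). Next came Nlrp3, the inflammasome sensor, at 81.3 CPM in KO and 73.2 CPM in WT (adjusted p = 0.943 in edgeR).

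Il4ra (ENSMUSG00000030748, chr7:125552120-125579474, plus strand), the chain common to both IL-4 receptors, ran from 81.8 to 153 CPM in KO, with a median of 123, and from 96.6 to 141 CPM in WT, with a median of 107. KO libraries 3 and 5 and WT library 5 were the highest, and KO library 1 was the lowest. The KO mean was 121 ± 23.3 CPM and the WT mean 109 ± 14.7 CPM (SD, n = 7 each). For Il4ra the log2 fold change was 0.14 ± 0.117 (SE) and did not pass (adjusted p = 0.943 in edgeR), and it was 0.08 without KO library 3 and 0.22 without KO library 1. The antisense gene Gm44876 overlaps the exons of Il4ra and held at most 6 counts.

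The 3 libraries with the highest Il4ra were also the 3 with the highest summed markers of border macrophages, which reached 946 CPM in KO library 3, 1015 in KO library 5 and 1114 in WT library 5. The sum was 581 to 847 CPM in the other libraries, and 6 of the 7 markers had counts in every library, Lyve1 being the exception with at most 5 counts. Mrc1 and Siglec1 made up most of the sum. F13a1 of the same list went the other way. It was highest in KO library 1 (1426 counts) and WT library 1 (1259 counts), where Il4ra was lowest in each genotype, at 81.8 and 96.6 CPM. The part of border macrophages in the Il4ra level was not tested, and this comparison was chosen after the values were seen.

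**Figure D5:**
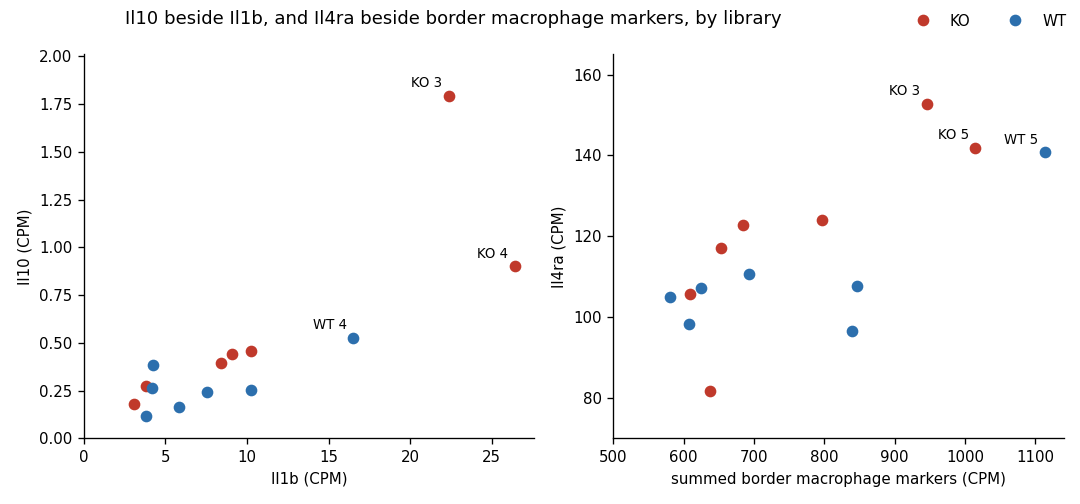
Left, CPM of Il10 against CPM of Il1b in each library, and right, CPM of Il4ra against the summed CPM of 7 border macrophage markers, KO in red and WT in blue, with the 3 libraries highest on the horizontal axis named. The same 3 libraries lead both axes in each panel (axes at right start above 0).

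Il13ra1 (ENSMUSG00000017057, chrX:36112110-36171259, plus strand), which completes the receptor for IL-13, was at 40.2, 42.7, 49.2, 47.2, 35.7, 45.5 and 38.2 CPM in KO libraries 1 to 7. The WT libraries held 39.8, 39.1, 37.6, 37.1, 33.7, 39.9 and 44.0 CPM. KO libraries 3, 4 and 6 were above every WT library, and KO library 5 was below every WT library except number 5. The KO mean was 42.7 ± 4.94 CPM and the WT mean 38.7 ± 3.14 CPM (SD, n = 7 each). For Il13ra1 the log2 fold change was 0.14 ± 0.0716 (SE), with a 95% interval from -0.01 to 0.29 (adjusted p = 0.943 in edgeR).

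Reads of the ligand Il4 and of the signalling chain were counted in these cultures, while the ligand Il13 and the decoy receptor were nearly absent. Il4 had 69 to 128 counts in every library (2.38 CPM in KO and 2.37 CPM in WT), and Il13 had at most 2 counts. Il2rg, the common gamma chain, was at 17.7 CPM in KO and 14.3 CPM in WT (adjusted p = 0.943 in edgeR), and the IL-13 decoy Il13ra2 had at most 6 counts. Stat6, the transcription factor of this pathway, was at 275 CPM in KO and 268.5 CPM in WT (log2 fold change 0.03, adjusted p = 0.943 in edgeR). Of 13 genes of the IL-4 and IL-13 pathway, 11 were tested, 9 were above 0 and 2 below, and none passed. Jak1 had the smallest unadjusted p, at 285 CPM in KO and 274 CPM in WT (log2 fold change 0.06 ± 0.0239, SE, adjusted p = 0.943 in edgeR).

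Arg1 (ENSMUSG00000019987, chr10:24915221-24927484, minus strand) encodes arginase 1, which breaks arginine down to ornithine and urea. The KO libraries 1 to 7 held 10, 8, 0, 5, 5, 22 and 14 counts of Arg1 and the WT libraries 17, 10, 7, 9, 8, 11 and 12. KO library 3 had none, which allows up to 0.0708 CPM (3 counts), and KO library 6 had the most, so the KO values reached past the WT range on both sides. The totals were 64 counts in KO and 74 in WT, and the difference in mean log2 CPM was -0.51 (exact two-sided permutation test, p = 0.479). Without KO library 3 it was -0.02, and prior counts of 0.25 and 5 gave -0.79 and -0.22. The mitochondrial form Arg2 was at 1.89 CPM in KO and 1.77 CPM in WT, and Nos2, the inducible nitric oxide synthase that competes for arginine, had at most 5 counts. In the list of arginine metabolism genes, 9 of 10 were tested, 3 were above 0, 6 below and none passed. Sms, spermine synthase, at 47.8 CPM in KO and 50.2 CPM in WT (adjusted p = 0.943 in edgeR), and Srm, spermidine synthase, at 21.6 and 23.4 CPM (adjusted p = 0.943 in edgeR), had the smallest unadjusted p.

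Chil3 (ENSMUSG00000040809, chr3:106147554-106167564, minus strand), also called Ym1, encodes a secreted lectin of the chitinase family and has a close copy, Chil4, on the same chromosome. The KO libraries held 1, 6, 9, 2, 2, 1 and 8 counts of Chil3 and the WT libraries 10, 10, 3, 2, 0, 3 and 17. WT library 7 alone held 17 of the 45 WT counts, against 29 counts in all of KO. KO libraries 3 and 7 and WT library 2, the highest in summed neutrophil markers, held 9, 8 and 10. Among WT, library 7 was the highest in the neutrophil markers Ngp, Ltf and Camp (69, 78 and 12 counts). Library 2 was the highest WT library in S100a8, S100a9 and Cxcr2. The part of neutrophils in the Chil3 counts was not tested. The difference in mean log2 CPM was -0.24 (exact two-sided permutation test, p = 0.709), and it was 0.06 without WT library 7. Chil4 had at most 2 counts in a library.

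The coding sequences of both genes are shown because a read that fits both cannot be assigned to either. Over their full coding length, 1197 bases in Chil3 and 1209 in Chil4 (GENCODE M21), they were identical at 94.4% of the aligned positions. The stretch of 120 bases with the most mismatches, 15, spans coding positions 835 to 954 of each gene, counted from the start codon, and capitals mark the bases that differ.
Chil3 coding: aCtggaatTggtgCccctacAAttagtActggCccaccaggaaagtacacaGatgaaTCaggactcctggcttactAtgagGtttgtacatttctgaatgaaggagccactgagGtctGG
Chil4 coding: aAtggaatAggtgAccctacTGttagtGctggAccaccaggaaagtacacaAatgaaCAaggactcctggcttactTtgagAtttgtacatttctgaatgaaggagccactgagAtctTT
Of the 1098 stretches of 100 bases in the Chil3 coding sequence, 4.92% also occurred in Chil4, so most stretches of this length differ between the copies at 1 base or more. The paper gives paired reads that are longer than these stretches, so this share is not that of the reads. How the counting treated reads that fit both is not given in the sources used here.

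The bases before the starts of both genes are shown because Chil3 and Chil4 are known targets of STAT6 and both were nearly silent in cultures with abundant Il4ra and Stat6. RefSeq promoters on GRCm38.p6 were given for 5 of the 9 genes, in 7 windows, and the letters TTCNNNGAA and TTCNNNNGAA, which STAT proteins are known to bind, were searched in the 250 bases before each start. Both motifs read the same on either strand. TTCNNNGAA was found in 2 of the 7 windows, those of Il1r2 and Chil3, and TTCNNNNGAA in 2, both of them overlapping windows of Il1rn, while 7.02% and 5.85% of all 32851 windows held them. The windows below run from base -250 to base -51 on the minus strand, at chr3:106167615-106167814 for Chil3 and chr3:106219530-106219729 for Chil4, with the match in capitals.
Chil3 promoter: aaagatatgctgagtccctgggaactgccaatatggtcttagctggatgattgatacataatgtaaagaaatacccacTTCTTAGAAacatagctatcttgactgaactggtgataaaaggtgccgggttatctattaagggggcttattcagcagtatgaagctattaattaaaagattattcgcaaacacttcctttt
Chil4 promoter: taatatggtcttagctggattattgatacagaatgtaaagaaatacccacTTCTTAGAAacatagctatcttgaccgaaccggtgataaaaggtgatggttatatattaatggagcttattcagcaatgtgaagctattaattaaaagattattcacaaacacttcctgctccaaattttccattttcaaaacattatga
The same 9 letters lie 172 bases before the Chil3 start and 200 bases before the Chil4 start given by RefSeq. They match TTCNNNGAA, and neither the Chil3 nor the Chil4 window held TTCNNNNGAA. A match describes the sequence. It does not show which STAT protein could bind it, or that a factor was bound in these cells.

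Other genes of alternative activation gave no call between the genotypes. Mrc1, the mannose receptor, was at 436 CPM in KO and 440.1 CPM in WT, whereas Retnla had at most 3 counts. Of 19 genes in this list, 13 were tested, 9 were above 0, 4 below and none passed. Tgm2, a transglutaminase, had 3.47 CPM in KO and 4.73 CPM in WT (log2 fold change -0.45 ± 0.221, SE, adjusted p = 0.943 in edgeR), and Clec7a, the beta-glucan receptor dectin-1, had 638 and 568 CPM (log2 fold change 0.17 ± 0.092, SE, adjusted p = 0.943 in edgeR).

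Downstream of the IL-10 receptor, 11 signalling and target genes were all tested, 9 were above 0, 2 below and none passed. Jak1, with the values given above, had the smallest unadjusted p among them. The 8 regulators of Il10 transcription were all expressed and all had a log2 fold change above 0, from 0.03 to 0.11, with none called. Among them Rps6ka4, a kinase that acts on CREB, was at 96.8 CPM in KO and 93.9 CPM in WT (adjusted p = 0.943 in edgeR), and Nfkb1, a subunit of NF-kB, at 163 and 153 CPM (adjusted p = 0.943 in edgeR). Of the 11 other cytokines and receptors of the IL-10 family only Il20rb was tested, at 1.86 CPM in KO and 1.82 CPM in WT (adjusted p = 0.981 in edgeR), and the rest had at most 4 counts in a library. Over all 98 genes of the 8 lists, 72 were tested, 52 had a log2 fold change above 0 and 20 below, with a median of 0.05. Of the 72, 3 had an unadjusted p under 0.05 in edgeR, against 529 of all 15700 tested genes (3.37%). Under upper-quartile scaling 49 of the 72 (68.1%) were above 0, against 72.2% in the main fit. The share over all genes moved from 50.8% to 43.0%, so the sign of the smallest values depends on the scaling.

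Across the 14 libraries, with the genotype means taken off, the genes of the list differed in how far they varied together. The highest Pearson correlation of log2 CPM between 2 of the tested genes was 0.848, for Il10ra with Il4ra, and both were lowest in the libraries numbered 1. The next was 0.569, for Il10rb with Il4ra. Il10 correlated positively with each of the other 5, from 0.340 with Il10rb to 0.514 with Il1rn, and Il10ra and Il10rb, the chains of the same receptor, one of 0.319. The genes most like Il10 were Vdac3, Nfkbiz and Klf7, with correlations of 0.902, 0.886 and 0.878, and Nfkbiz encodes a nuclear regulator of NF-kB. Those most like Il10ra were Naaa, Nlrp3 and Rab5c (0.961, 0.954 and 0.943), and those most like Il10rb were Snx8, Tcof1 and Ssh3 (0.956, 0.955 and 0.942). Il1rn was most like Klf13, Napg and Pou3f1 (0.923, 0.920 and 0.914). Il4ra was most like Ly6e, Arrb2 and Dnaaf3 (0.983, 0.974 and 0.972), and Il13ra1 most like Zbtb18, Jak2 and Zfp592 (0.921, 0.903 and 0.892). Each value is among the highest over all other tested genes, over 14 points that share the library and its depth with every gene, and is given as a description.

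Markers of cells other than microglia differed between cultures and leaned with the genotype in places. The 6 astrocyte markers summed to 24.0 to 126 CPM in KO (median 41.5) and 29.1 to 244 CPM in WT (median 75.6), and all 6 had a log2 fold change below 0 without any call. Neuron markers summed to 14.4 to 28.7 CPM in KO and 15.9 to 35.9 CPM in WT, and all 6 of them, like all 5 fibroblast and mural cell markers, were below 0 as well. The 6 tested neutrophil markers were all above 0 (median 0.68) and none was called. Il10, Il10ra, Il10rb, Il4ra, Il13ra1 and Il1r2 also differed in this direction, whereas Il1rn, Arg1 and Chil3 differed in the other. Of the libraries highest in neutrophil markers, KO library 3 led Il10 at 1.80 CPM. KO library 7 (0.455 CPM) and WT library 2 (0.245 CPM) lay within the WT range of Il10. The 9 microglia markers summed to 7451 to 9391 CPM in KO and 7063 to 8928 CPM in WT. The part of the cell makeup in the differences described here was not tested.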

How the data were processed

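Messenger RNA was measured in 14 libraries, 7 KO and 7 WT, and the genotype and library number were taken from the sample labels. The submitters' processing notes name Trimmomatic 0.36, STAR 2.5.2b, featureCounts from Subread 1.5.2, DESeq2 and the build GRCm38. The authors deposited raw counts of reads per Ensembl gene, without normalization. The strand setting, the annotation release and the batch of each library are not given in the sources used here, so the batch covariate of the study's own model could not be used. Names, positions and exon lengths came from GENCODE M21, which matched 49056 of the 49315 genes.

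Depth was 38875344 to 48070236 counts per library, and floors at 3 counts cover counting error only. Low genes were removed by filterByExpr (at least 10 counts, 15 in total) and library sizes were scaled by TMM. KO was then compared with WT in edgeR 4.0.16 (R 4.3.3) by its quasi-likelihood test (two-sided). The p-values were adjusted by the Benjamini-Hochberg method over all 15700 tested genes, with 0.05 as the limit. Log2 CPM used a prior count of 1. Genes under the filter were compared by an exact permutation test of mean log2 CPM over the 14 libraries. The tests were tried on simulated data. DESeq2 1.42.0, other scalings, filters and prior counts, a replicate block and leaving out libraries were alternatives.

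The 9 genes, the pathway lists and the marker lists were chosen with earlier results of these data known, so no test over a list is given. Named beside the 9 genes are their partners, ligands, decoys and copies, the 2 genes of each pathway list with the smallest p (1 of these is not reported here), and the 3 genes most like each tested gene. Libraries are separate pools of pups. Promoters came from RefSeq, and protein sequences were not used here.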

Additional observations from a re-analysis of the deposited data

Results flagged for a closer look

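Among the values of the 9 genes within each genotype, 3 lay far from the other 6 libraries by Dixon's ratio of gap to range (95% level) on the log2 CPM scale. Chance flags about 1 in 20 such groups, and 18 groups were looked at. Il10ra in KO library 1 was at 91.7 CPM, with the nearest KO library at 126 CPM (ratio 0.653). Il4ra in WT library 5 was at 141 CPM, with the nearest WT library at 111 CPM (ratio 0.640). Arg1 in KO library 3 was at 0 CPM, with the nearest KO library at 0.119 CPM and the highest at 0.513 CPM (ratio 0.577). This ratio rests on where the prior count of 1 places a count of 0 on the log2 scale.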

How the results depend on the processing

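None of the 24 alternatives called any of the 6 tested genes, and their log2 fold changes kept their sign in every alternative except for Il1rn, which was 0.0168 without KO library 5 and 0.0362 without WT library 2. Chil3 changed sign to 0.0593 without WT library 7 and to 0.0940 without both libraries numbered 1, a setting chosen after seeing the data, as was leaving out the 3 libraries highest in neutrophil markers. The cause was not tested. Over all genes, DESeq2 called 11 (5 higher, 6 lower in KO) and DESeq2 with the replicate block called 27 (16 higher, 11 lower), against 3 in edgeR, and leaving out each library in turn gave 3 to 4. Leaving out each library moved Il10 between 0.66 and 1.40, Il10ra between 0.11 and 0.22, Il10rb between 0.01 and 0.04, Il1rn between -0.17 and 0.04, Il4ra between 0.08 and 0.22, Il13ra1 between 0.10 and 0.18, Il1r2 between 0.32 and 1.01, Arg1 between -0.77 and -0.02 and Chil3 between -0.64 and 0.06. The libraries were not treated as pairs in the main comparison. Over all tested genes, same-numbered libraries had a correlation over 0.1 in 3 of 7 pairs (0.392, 0.743 and 0.114, mean of all 0.103), and 1 KO library matched its own number best. Single genes did follow the number in both genotypes. F13a1 was highest in the libraries numbered 1, and Dusp1 in those numbered 4 (423 CPM in KO and 403 CPM in WT). The labels do not say what a shared number stands for. With the replicate block in edgeR, 3 genes were called and none of the 6, with log2 fold changes of 0.97 for Il10 and 0.15 for Il10ra (adjusted p = 0.792 for both). Under the block Il10ra, and no longer Il10, was under an unadjusted p of 0.05. KO was above the WT library of the same number in 6 of 7 cases for each of Il10, Il10ra, Il4ra and Il13ra1. The count was 4 for Il1rn and Il1r2, 3 for Il10rb and 2 for Arg1 and Chil3. The share of all tested genes that reached 6 of 7 was not counted, so these counts are a description. Il1r2 rests on 26 counts in KO and 23 in WT, and Chil3 on 29 and 45, which limits the precision of their differences.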
